A study of Mus musculus with 2 samples.

Results

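The cells described here are mouse hair follicle cells that held transcripts of inner root sheath keratins. Cells were chosen by the UMIs (unique molecular identifiers, each counting 1 captured transcript) of 4 genes, Krt25, Krt27, Krt28 and Krt71: at least 2 of the 4 had to be detected and their UMI sum had to be 5 or more. In replicate 1, 52 of 3918 kept cells met the rule, and in replicate 2, 40 of 3041, which makes 92 of 6959 in all. They were compared with all other kept cells that held at least 1 UMI of Krt5 or Krt14, the basal keratinocyte keratins, which were 3828 and 2965 cells. The 4 genes that chose the cells are therefore described with no test, and so are Krt5 and Krt14.

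The study profiled single cells of 2 libraries, replicates 1 and 2 of a single group: wild type mice of strain C57BL/6;CD1 at postnatal day 32, in anagen, when hair grows. Skin cells were sorted as stem cells of the hair follicle by the surface protein CD34 and by H2BGFP, a fluorescent histone driven by the K14 promoter, and this sort was applied to both libraries. There is no second condition, and nothing in the labels says that the libraries came from separate animals. P-values therefore measure only the spread between these libraries, which may be technical.

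The hair follicle is built of concentric layers. The outer root sheath is continuous with the epidermis and holds the stem cells of the bulge. In anagen, dividing matrix cells at the base of the follicle give rise to the hair shaft and to the inner root sheath, a set of layers that hardens early, guides the shaft upward and is then broken down. Keratins form filaments as pairs of a type I and a type II protein. Krt25, Krt27 and Krt28 encode type I keratins of the inner root sheath, and Krt71 encodes a type II partner. Trichohyalin, the product of Tchh, is the protein that binds these filaments together when the sheath hardens.

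In the mouse genome (GRCm38, GENCODE M21 gene models) the type I genes lie side by side on the minus strand of chromosome 11: Krt25 at chr11:99315516-99322951, Krt26 at chr11:99328550-99337966, Krt27 at chr11:99345565-99351104 and Krt28 at chr11:99364872-99374903. Krt71 lies on the minus strand at chr15:101733949-101743109, and Krt72 at chr15:101776172-101786460 and Krt73 at chr15:101793308-101802346 lie further along that chromosome. The 120 bases before the RefSeq start of each of the 4 genes are shown so that the starts of the genes that chose the cells can be compared. Sequences are from RefSeq on GRCm38.p6, read 5′ to 3′ along the gene's strand, and all 4 genes matched by symbol. They lie at chr11:99322952-99323071, chr11:99351119-99351238, chr11:99374904-99375023 and chr15:101743098-101743217, in the order printed. The RefSeq starts of Krt25 and Krt28 are those of the gene models above, that of Krt27 lies 14 bases outside its model, and the window of Krt71 overlaps its model by 12 bases. Capitals mark exact matches, on either strand and not overlapping, to 3 motifs that were searched. The first is TATAAA, the core of the box that places the start of transcription. Another is GATAA, the core bound by Gata3 and its relatives. The last is CTTTGA, a core bound by Lef1 and related factors. A homeodomain core, TAATTA, was searched as well and had no match.
Krt25: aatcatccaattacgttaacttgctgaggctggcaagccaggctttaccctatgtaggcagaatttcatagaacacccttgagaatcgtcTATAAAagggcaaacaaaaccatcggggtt
Krt27: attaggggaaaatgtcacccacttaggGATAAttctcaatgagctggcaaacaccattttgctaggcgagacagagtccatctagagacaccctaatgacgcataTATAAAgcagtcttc
Krt28: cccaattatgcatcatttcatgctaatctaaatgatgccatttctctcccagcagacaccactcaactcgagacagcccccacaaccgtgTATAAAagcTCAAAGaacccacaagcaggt
Krt71: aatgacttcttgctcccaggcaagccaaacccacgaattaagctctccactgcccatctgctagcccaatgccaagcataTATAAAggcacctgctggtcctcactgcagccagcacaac

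Each of the 4 windows held TATAAA, once per window. Of 32851 RefSeq mouse promoters, 6.34% held it in the same window, and of the 37 keratin gene promoters among them, 15 did (40.5%). GATAA, found only before Krt27 among the 4, was in 10.5% of all windows, CTTTGA, found only before Krt28, in 6.10%, and TAATTA in 2.09%. A match of letters is a description and shows no bound factor.

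The chosen cells made up 1.33% of kept cells in replicate 1 (95% Clopper-Pearson interval 0.993 to 1.74) and 1.32% in replicate 2 (0.941 to 1.79). These intervals, like all others given, cover counting error only. The shares were alike, but the cells of replicate 1 held more of the 4 keratins: their median UMI sum was 24, against 14 in replicate 2, and the maximum 4864 against 112. Near the threshold, among cells with at least 2 of the genes, 5 and 8 cells of replicate 1 had sums of 3 and 4, and 4 and 1 cells had sums of 5 and 6. In replicate 2 the counts were 6 and 3 cells at sums of 3 and 4, and 5 and 4 cells at 5 and 6. A further 3 and 5 cells had 5 UMIs or more of a single gene and were left out.

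The cells were deep. Their median was 21618.5 UMIs in replicate 1 and 19368 in replicate 2, against 9901 and 9719 in comparison cells, with median gene numbers of 4185.5 and 3900.5 against 2801.5 and 2779. Mitochondrial shares were close, with medians of 6.22% and 4.33% against 6.06% and 4.41%. Cells in the top share of doublet scores were 3 of 52 (5.77%, against 5.49% of comparison cells) in replicate 1 and 11 of 40 (27.5%, against 3.95%) in replicate 2. When every cell was thinned to 5000 UMIs before the rule was applied, 25 and 15 cells met it. The libraries shared 11 barcodes, of which 3 were kept in both and 0 were chosen cells. The part of depth and of doublets in the results was not tested. Counts without doublet-ranked cells and cells of other types are given beside the hair lineage, matrix, fibroblast and immune lists.

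Krt28, a type I keratin, was the gene found most widely. It had a UMI in 48 of 52 cells of replicate 1 and 38 of 40 of replicate 2, with medians of 13 and 6.5 UMIs per cell. Krt25 was found in 47 and 28 cells, with medians of 4 and 3.5 UMIs. Krt27 was found in 41 and 28 cells, with medians of 1.5 and 1. Krt71, the type II partner, was found in only 21 and 17 cells, so that its median was 0 UMIs in both libraries. Krt27 and Krt28 were detected together in 39 and 27 cells, and Krt71 and Krt28 in 17 and 15. All 4 genes were detected in 10 cells of replicate 1 and 7 of replicate 2, 3 of the genes in 33 and 17, and 2 in 9 and 16.

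Summed over the cells of a library and scaled to the library's total (CPM), the 4 genes came to 5819 CPM in replicate 1 and 1135 in replicate 2. A single cell of replicate 1 accounts for most of that gap. It held 4864 of the 7051 UMIs (69.0%): 1666 of Krt25, 671 of Krt27, 132 of Krt28 and 2395 of Krt71. Without it the sum fell to 1850 CPM. Krt71 went from 2361 to 394 CPM (166 in replicate 2), Krt25 from 1884 to 522 (302 in replicate 2) and Krt27 from 668 to 117 (71.0 in replicate 2). Krt28 went only from 906 to 817 CPM (596 in replicate 2). In replicate 2 the highest cell held 93 of the 264 UMIs of Krt25, and without it Krt25 stood at 198 CPM. The cell of replicate 1 also held 417 UMIs of Tchh and 8 of Krt73, had 3 UMIs of Krt5 and 0 of Krt14, and showed 1 of 12 cycling markers. No other cell resembled it in level: the next highest sum in that library was 243.

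**Figure D1:**
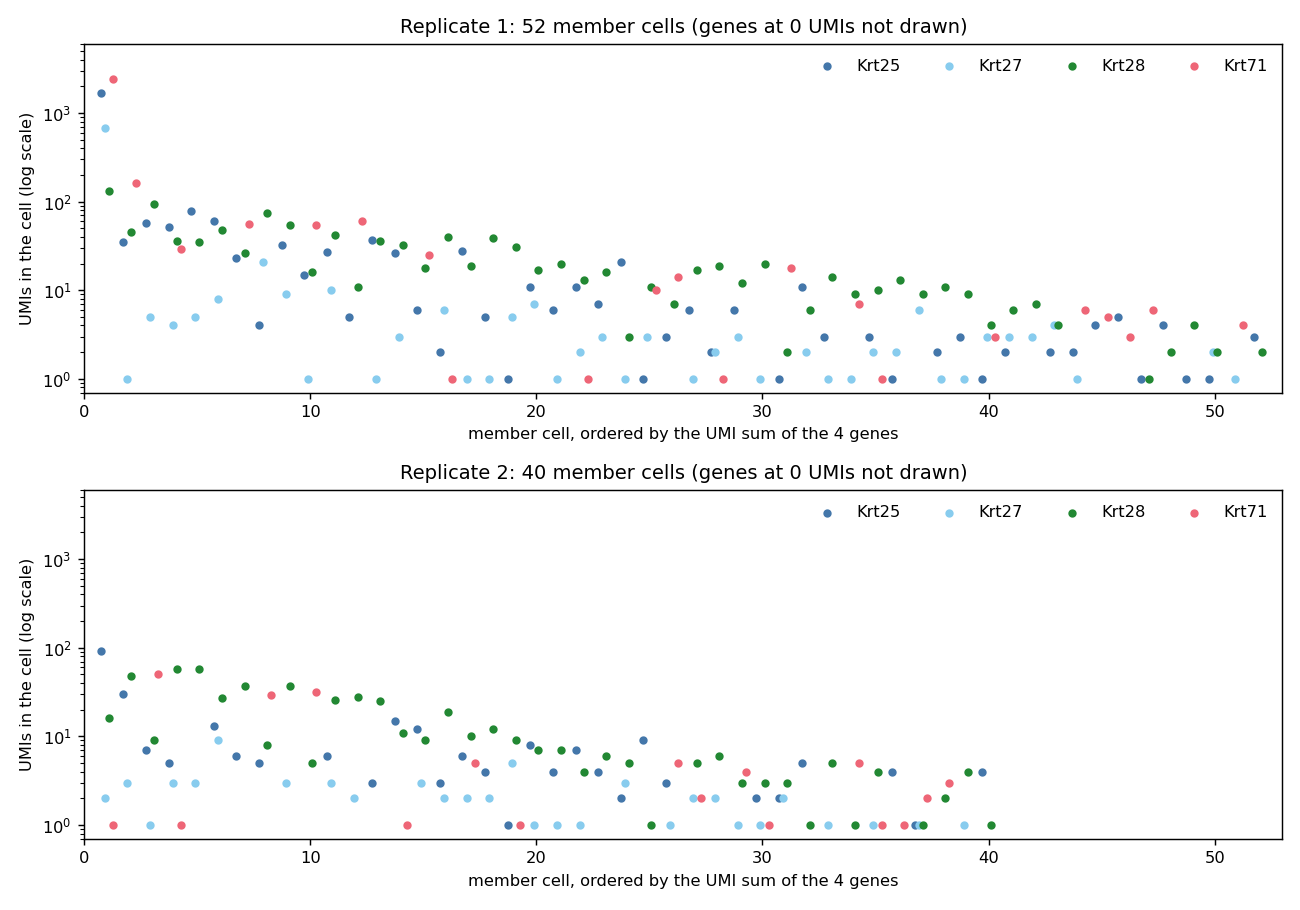
UMIs of Krt25, Krt27, Krt28 and Krt71 (log axis) in each of the 52 chosen cells of replicate 1 (top) and the 40 of replicate 2 (bottom), ordered by their UMI sum. Most cells hold Krt28 and Krt25, Krt71 is at 0 in 31 and 23 cells, and 1 cell of replicate 1 lies far above the rest.

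In comparison cells, Krt25 stood at 1.45 and 2.34 CPM, Krt27 at 0.808 and 1.77, Krt28 at 4.68 and 6.37 and Krt71 at 6.18 and 7.21 CPM. At least 1 UMI of any of the 4 genes was found in 11.3% and 13.8% of comparison cells, or 5.50% and 7.05% after thinning to 5000 UMIs. Fibroblast, endothelial, immune and melanocyte cells, which should lack these keratins, had such a UMI in 7 of 83 cells in replicate 1 (8.43%, at a median of 12083 UMIs) and 0 of 61 in replicate 2, which allows up to 4.92%. After thinning those shares were 2.67% and 0%. Free RNA in the droplets can leave single UMIs in cells that do not express a gene. The unthinned shares of comparison cells were close to those of the other types in replicate 1 and above them in replicate 2.

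The label was checked with the other inner root sheath genes. Krt73, a type II keratin of the inner root sheath cuticle, held 34 UMIs in 2 cells of replicate 1 and 30 UMIs in 1 cell of replicate 2, against 1 and 3 UMIs in all comparison cells. Its fitted log2 fold change was 9.09 ± 0.69 (SE; adjusted p = 1.14e-09, edgeR, quasi-likelihood and two-sided, adjusted after Benjamini and Hochberg, as are all adjusted p-values here), a value that rests on 3 of the 92 cells. Krt26, the gene between Krt25 and Krt27, had 6 UMIs in 1 cell of replicate 1 and 0 in replicate 2. Krt72 had 0 UMIs in both libraries. Tchh was found in 5 cells of each library, but 98.8% of its 422 UMIs in replicate 1 and 90.7% of its 54 in replicate 2 came from a single cell each. Its fitted change was 5.88 ± 0.36 (adjusted p = 3.55e-11). Without the highest cell of replicate 1 it remained called, but stood at only 4.23 CPM there, against 3.02 CPM in that library's comparison cells. In replicate 2 it stood at 61.9 CPM against 3.06, with 49 of its 54 UMIs in 1 cell. That call therefore does not show a rise spread over many chosen cells. The label thus rests on the keratins that chose the cells, while the genes of hardening sheath were found in few of them.

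Beyond Tchh, few genes of the inner root sheath's structure and crosslinking were called, and most held few UMIs. Fitted log2 fold changes of those tested but not called ran from -2.03 (Padi4) to 2.58 (Dsc1). Of 15 in the list, 10 passed the filter on low counts, of which 2 were higher and 1 lower. The second was Ctsl, which encodes the lysosomal protease cathepsin L, at 357 and 422 CPM against 249 and 211 (log2 0.82 ± 0.13, adjusted p = 4.76e-05). Cst6, an inhibitor of such proteases, stood at 19.0 and 6.87 CPM against 39.9 and 38.2 and was lower (log2 -1.47 ± 0.29, adjusted p = 0.000524). Over all 13142 genes tested, 10.9% were higher and 14.1% lower in the chosen cells, at a median of -0.12 in log2 fold change. The counts below are read against these shares. With cells thinned to 5000 UMIs, 1.11% of 11364 genes were higher and 4.02% lower. Against comparison cells of the chosen cells' depth, 6.97% of 11270 were higher and 10.8% lower. Without doublet-ranked cells and cells of other types, 10.7% of 12778 were higher and 14.2% lower. Counts in those settings are read against their own shares.

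Of 22 transcription factors of the hair lineages, 21 were tested: 12 were higher, 3 lower, and the median in log2 units was 1.29. Cux1, a homeodomain factor needed for a normal inner root sheath, was found in 52 of 52 and 39 of 40 cells, and in 15.2% and 28.3% of comparison cells. It stood at 849 and 815 CPM, against 40.0 and 99.1 CPM (log2 3.79 ± 0.20, adjusted p = 3.60e-12). Msx2, a homeodomain factor of the matrix and shaft, stood at 70.1 and 75.6 CPM against 7.77 and 9.95 (log2 3.12 ± 0.21, adjusted p = 2.48e-10). Lef1, which carries WNT signals to the genome, was found in 12 and 8 cells, at 23.9 and 22.9 CPM against 0.546 and 1.89 (log2 4.53 ± 0.52, adjusted p = 6.94e-07). In all 3 genes both libraries' chosen cells lay above both libraries' comparison cells.

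The further factors that rose were Dlx1, Dlx2, Dlx3 and Dlx4, homeodomain genes of skin appendages (log2 1.35, 0.84, 2.04 and 2.63), with Msx1 (1.98), Ovol1 (1.53), Tfap2c (1.12), Trps1 (0.89) and Sp6 (3.93), whose UMIs all lay in 1 cell of each library. Dlx3 stood at 84.2 and 39.0 CPM against 18.0 and 12.7. Prdm1, a transcriptional repressor, fell by 2.14 on the log2 scale, to 6.60 and 3.44 CPM from 29.0 and 17.5. Vdr, the vitamin D receptor, and Hr, its partner in hair cycling, were lower by -1.31 and -0.63 in log2 units. Gata3, a factor known to specify the inner root sheath, stood at 109 and 87.1 CPM in chosen cells and at 113 and 77.3 in comparison cells, with a fitted log2 fold change of 0.11 ± 0.16 (adjusted p = 0.665). It was thus abundant on both sides, in 41 and 22 of the chosen cells and in 57.0% and 47.2% of the comparison cells. Without doublet-ranked cells and cells of other types, 11 factors of 20 were higher and 5 lower. With each cell thinned to 5000 UMIs, which left 25 and 15 chosen cells, 2 of 20 were higher and 1 lower, against 1.11% and 4.02% of all genes.

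Signals of the hair matrix were higher as well. Of 17 such genes, 15 were tested, of which 9 were higher and 0 lower, with a median of 1.96. Wnt4, a WNT ligand, was found in 44 of 52 and 35 of 40 cells, at 127 and 151 CPM against 16.3 and 44.6 (log2 2.42 ± 0.21, adjusted p = 1.03e-08). Wnt5a, another ligand, was found in 17 and 13 cells, at 23.9 and 21.8 CPM against 1.83 and 3.49 (log2 3.25 ± 0.42). Bmp7, a ligand of the BMP family, was in 16 and 14 cells, at 21.5 and 26.4 CPM against 5.15 and 7.15 (log2 2.03 ± 0.33). These 3 ligands were spread over many cells of both libraries.

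Shh, the hedgehog ligand that matrix cells secrete, had 54 UMIs in 2 cells of replicate 1 and 13 UMIs in 4 cells of replicate 2, against 2 and 5 UMIs in all comparison cells (log2 8.22 ± 0.73, adjusted p = 1.60e-08). Of the UMIs of replicate 1, 74.1% lay in 1 cell, which was among those with top doublet scores and also held 16 of the 17 Wnt10b UMIs there. Without doublet-ranked cells and cells of other types Shh was still called (log2 7.38), and Wnt10b was not (3.39, adjusted p = 0.134). Against all comparison cells, Wnt10b (log2 4.94), with 2 and 3 cells, Bmp4 (3.37), with 4 and 5, Axin2 (2.30), a WNT target, with 6 and 6, and Wnt11 (1.96), with 8 and 3, were also called from few cells. Bambi, a decoy BMP receptor, was called at log2 0.77 ± 0.28 (adjusted p = 0.0488), but stood at 33.0 CPM against 37.5 in replicate 1 and at 67.6 against 22.9 in replicate 2, so the libraries did not share its direction. Ptch1 and Gli1, which hedgehog signals switch on, had fitted changes of 0.08 ± 0.25 and -0.01 ± 0.27 and were not called. With cells thinned to 5000 UMIs, 1 of 12 matrix signals was higher and 0 were lower, against 1.11% and 4.02% of all genes. Without doublet-ranked cells and cells of other types 7 of 15 were higher.

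Genes of the outer root sheath and bulge moved the opposite way. Of 21 tested, 19 were lower and 0 higher, with a log2 median of -2.77. The 2 that were not called were Lhx2, a bulge transcription factor at 181 and 175 CPM against 181 and 210 (log2 -0.06 ± 0.13), and Fgf18, a growth factor gene with 0 and 3.44 CPM against 1.45 and 1.89. Krt17, a keratin of the outer root sheath and companion layer, stood at 1176 and 832 CPM against 8399 and 5557 (log2 -2.73 ± 0.07, adjusted p = 9.25e-18). Sox9, a factor of the outer root sheath, was found in 16 and 11 cells, at 75.9 and 53.8 CPM against 756 and 384 (log2 -3.05 ± 0.15, adjusted p = 9.28e-13). Krt15, a bulge keratin, stood at 1533 and 1865 CPM against 3243 and 5761 (log2 -1.29 ± 0.09, adjusted p = 1.79e-10).

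Cd34, whose protein was used in the sort, had 8 UMIs in 4 and 1 cells, which is 4.95 and 2.29 CPM against 84.7 and 100.3 CPM (log2 -4.52 ± 0.31, adjusted p = 2.99e-10). Lgr5, a stem cell receptor gene, fell less, by 0.92 on the log2 scale, and kept a UMI in 25 and 26 cells. Postn, Barx2, Gas1 and Pthlh changed by log2 -4.31, -4.38, -3.92 and -4.23. Tagln and Acta2, contractile genes of the lower sheath, changed by -2.83 and -2.63. Nfatc1, a bulge factor with 3 UMIs in the chosen cells, stood 10.4-fold lower (counting error allows 3.56 to 50.7), and Wfdc18, with 2 UMIs, 80.1-fold (22.2 to 661). Krt5 and Krt14, which helped to choose the comparison cells, are given without a test: Krt5 stood at 669 and 1074 CPM against 2568 and 3348, and Krt14 at 519 and 976 against 4440 and 3808. In all but 1 chosen cell at least 1 UMI of the pair was found.

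**Figure D2:**
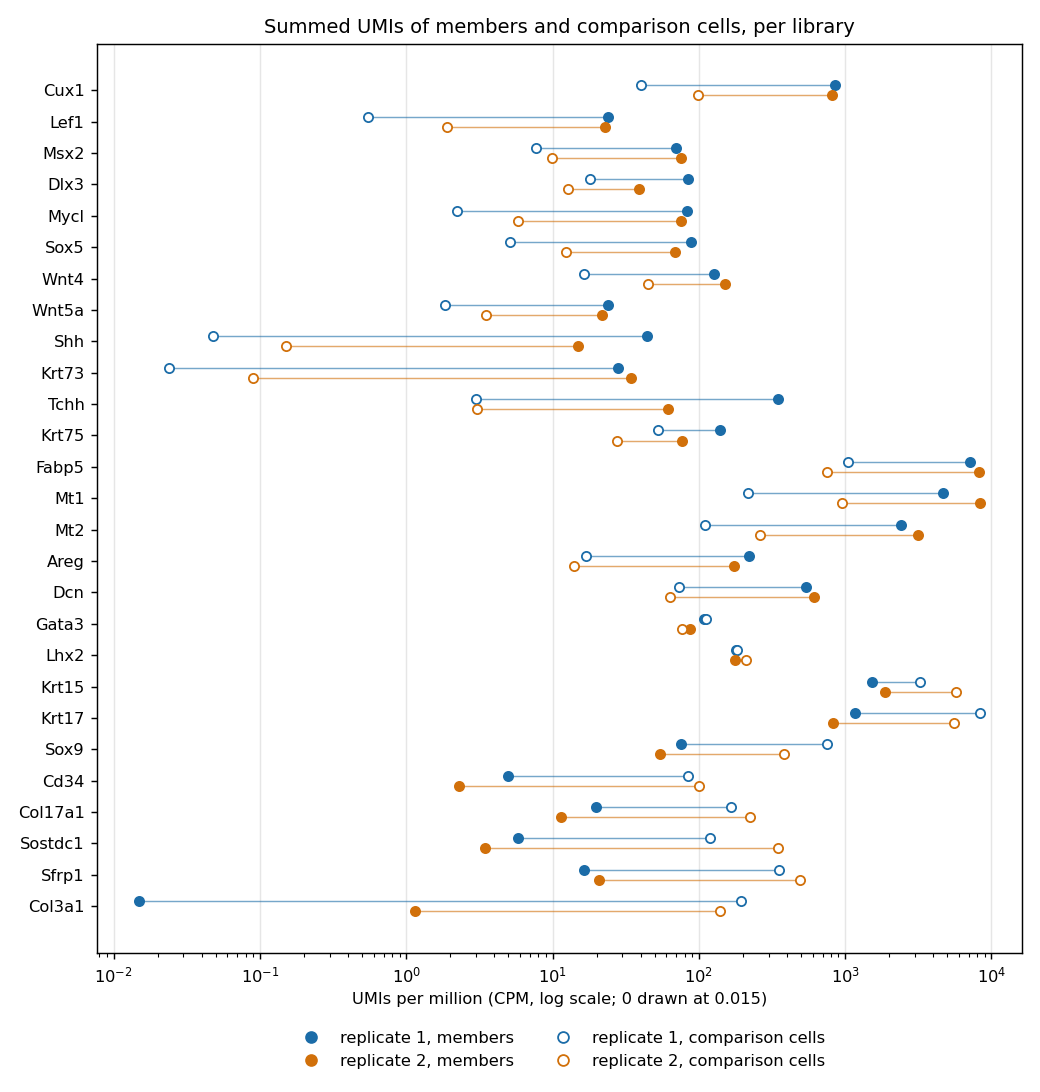
Level of 27 genes in CPM (log axis) in the summed chosen cells (filled) and comparison cells (open) of each library. Cux1, Lef1, Msx2, Mycl and the metallothioneins lie to the right in chosen cells, Krt15, Krt17, Sox9 and Cd34 to the left, and Gata3 and Lhx2 overlap.

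All 19 genes of the hemidesmosome and basement membrane, which hold basal cells to the matrix beneath them, were lower, with a median of -1.32. Col17a1, a transmembrane collagen of the hemidesmosome, stood at 19.8 and 11.5 CPM against 165 and 225 (log2 -3.50 ± 0.23, adjusted p = 8.62e-11). Itgb4 and Itga6, the integrin pair of that junction, stood at 22.3 and 12.6 CPM against 69.3 and 63.4, and at 73.4 and 75.6 against 135 and 131 (log2 -1.84 ± 0.24 and -0.78 ± 0.16). The laminin chains Lamb3 and Lama5 changed by -2.12 and -1.95. With cells thinned to 5000 UMIs, 10 of the 19 were lower, against 4.02% of all genes, and 0 higher. Desmosome genes, which join neighbouring cells, were lower in 6 of 14 and higher in 1, or lower in 2 of 13 with thinned cells. Dsg3, a basal desmoglein, stood at 8.25 and 5.73 CPM against 43.6 and 52.1 (log2 -2.66 ± 0.30, adjusted p = 6.32e-07). Dsp, Jup, Dsc3, Pkp3 and Perp changed by -1.14, -0.99, -0.94, -0.78 and -0.53, and the gene that rose was Pkp4 (0.79 ± 0.28, adjusted p = 0.0419), which was no longer called without the highest cell of replicate 1.

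Keratins of neighbouring layers divided. Of 4 companion layer keratins tested, Krt75 and Krt16 were higher and Krt17 and Krt6a lower. Krt75, which marks the companion layer, stood at 140 and 76.8 CPM against 52.2 and 27.6 (log2 1.51 ± 0.17, adjusted p = 4.27e-07), with 48.2% of its UMIs in replicate 1 in 1 cell. Krt16, a keratin induced in activated keratinocytes, stood at 111 and 162 CPM against 82.4 and 34.1 (log2 1.38 ± 0.26), with 54.6% of its UMIs in replicate 2 in 1 cell. Krt6a stood at 6.60 and 0 CPM against 70.2 and 43.3. Of 15 hair shaft keratins in the files, 3 were tested and 1 was higher: Krt35, an early shaft keratin, with 4.95 and 28.6 CPM against 0.190 and 0.961, found in 1 and 5 cells. Along chromosome 11, Krt10 and Krt12, which follow Krt28, stood at 33.0 and 27.5 CPM, and at 0.825 and 0 CPM, all below the comparison cells (43.4 and 46.6, and 5.15 and 9.68).

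Epidermal differentiation genes were lower in 7 of 15 tested and higher in 0, with a median of -1.32. Fewer were called in other settings: 1 of 14 with thinned cells (4.02% of all genes), 2 of 13 with DESeq2 (6.94%), 2 of 15 with no replicate block (6.09%) and 3 of 12 against the cycling cells described below (7.62%). Krtdap, a gene of differentiating keratinocytes, had 0 UMIs in both libraries against 13.2 and 54.0 CPM. Counting error alone would put it at least 17.6-fold lower. It was found in only 1.83% and 4.89% of comparison cells, however, so its absence from 52 and 40 chosen cells sets no firm fold. Sbsn and Dmkn, secreted proteins of the upper layers, changed by log2 -3.06 and -1.32. Of 7 upper hair follicle genes tested, 0 were higher and 4 lower, among them Krt79 (-3.17) and Lrig1 (-1.86). Without the highest cell of replicate 1, 1 of 7 was higher and 4 lower. With thinned cells 1 of 6 was higher and 1 lower. Summed over the list, the chosen cells stood at 562 and 132 CPM against 465 and 345, so the libraries did not share a direction. Defb6, a defensin gene of that region, had 0 UMIs against 14.5 and 21.8 CPM. Counting error alone would put it at least 10.0-fold lower, a limit that leaves out how its UMIs were spread over cells.

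Most of the chosen cells held transcripts of dividing cells. After thinning to 5000 UMIs, at least 3 of 12 cycling markers were detected in 37 of 51 cells of replicate 1 (72.5%, 95% interval 58.3 to 84.1) and in 31 of 40 of replicate 2 (77.5%, 61.5 to 89.2), against 28.7% and 29.1% of comparison cells. Comparison cells at or above the lower quartile of the chosen cells' UMIs reached 47.1% and 62.3%. Without thinning the shares were 84.6% and 92.5%, against 36.9% and 37.3%. Transcripts from free RNA count toward these shares, and its part was not tested.

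In the summed counts all 12 markers were higher, with a median of 1.08. Against comparison cells of the chosen cells' depth 5 of 12 were higher (median 0.49), and with thinned cells 4 of 12 (median 0.71), against 6.97% and 1.11% of all genes. Top2a, a topoisomerase of dividing cells, stood at 267 and 300.2 CPM against 114 and 164 (log2 1.12 ± 0.13, adjusted p = 1.37e-06), and Mki67 at 220 and 156 against 113 and 118 (log2 0.75 ± 0.15). Ube2c and Cdk1, which drive mitosis, changed by 1.57 and 1.45, Pclaf, Rrm2 and Tyms, genes of DNA synthesis, by 1.21, 1.14 and 1.11, and Ccnb1, Tpx2, Birc5, Nusap1 and Cenpf by 1.04, 0.96, 0.85, 0.66 and 0.46. Of 42 S phase genes 22 were higher and 1, Gins2, lower (median 0.63), and of 52 G2/M genes 37 were higher and 0 lower (median 0.76). Against comparison cells of the chosen cells' depth, 12 of 42 and 9 of 52 were higher, against 6.97% of all genes, and with thinned cells 0 and 8. Genes of cell cycle exit were lower in 4 of 9 and higher in 0, among them Btg1 and Btg2, antiproliferative genes (log2 -1.22 and -0.90), and Cdkn1b (-0.71), and in 1 of 9 at matched depth.

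Since depth and cycling differed between the groups, the cells were also compared with comparison cells that had at least 3 cycling markers and UMIs at or above the same lower quartile, which were 278 and 476 cells. This comparison was added after the data were seen. Of 10515 genes, 4.43% were higher and 7.62% lower, with a median of -0.02. Hair lineage factors were higher in 10 of 20 and lower in 2 (median 1.37), with Cux1 at log2 3.19 ± 0.26 (adjusted p = 3.25e-07), Msx2 at 2.77 and Lef1 at 3.61. Matrix signals were higher in 7 of 14 (median 1.74) and outer root sheath and bulge genes lower in 19 of 20 (median -2.66). Hemidesmosome genes were lower in 13 of 19 (median -1.25), with Itga6 among those not called (adjusted p = 0.0555). The 4 Notch pathway genes that were called against all comparison cells, Notch1, Jag1, Hes1 and Maml2, were not called here. Their log2 fold changes were -0.37, -0.46, -0.53 and -0.72, with adjusted p-values of 0.305, 0.346, 0.197 and 0.317 (edgeR), against -0.46, -0.79, -1.03 and -1.10 over all comparison cells. Whether the 2 sets of values differ was not tested. Against comparison cells of the chosen cells' depth with no cycling filter, 0 of 13 Notch pathway genes were called. The 12 cycling markers helped to choose these comparison cells, while the chosen cells were not filtered by them. The medians of the S phase, G2/M and marker lists, 0.17, -0.05 and 0.07, are therefore given as a description.

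**Figure D3:**
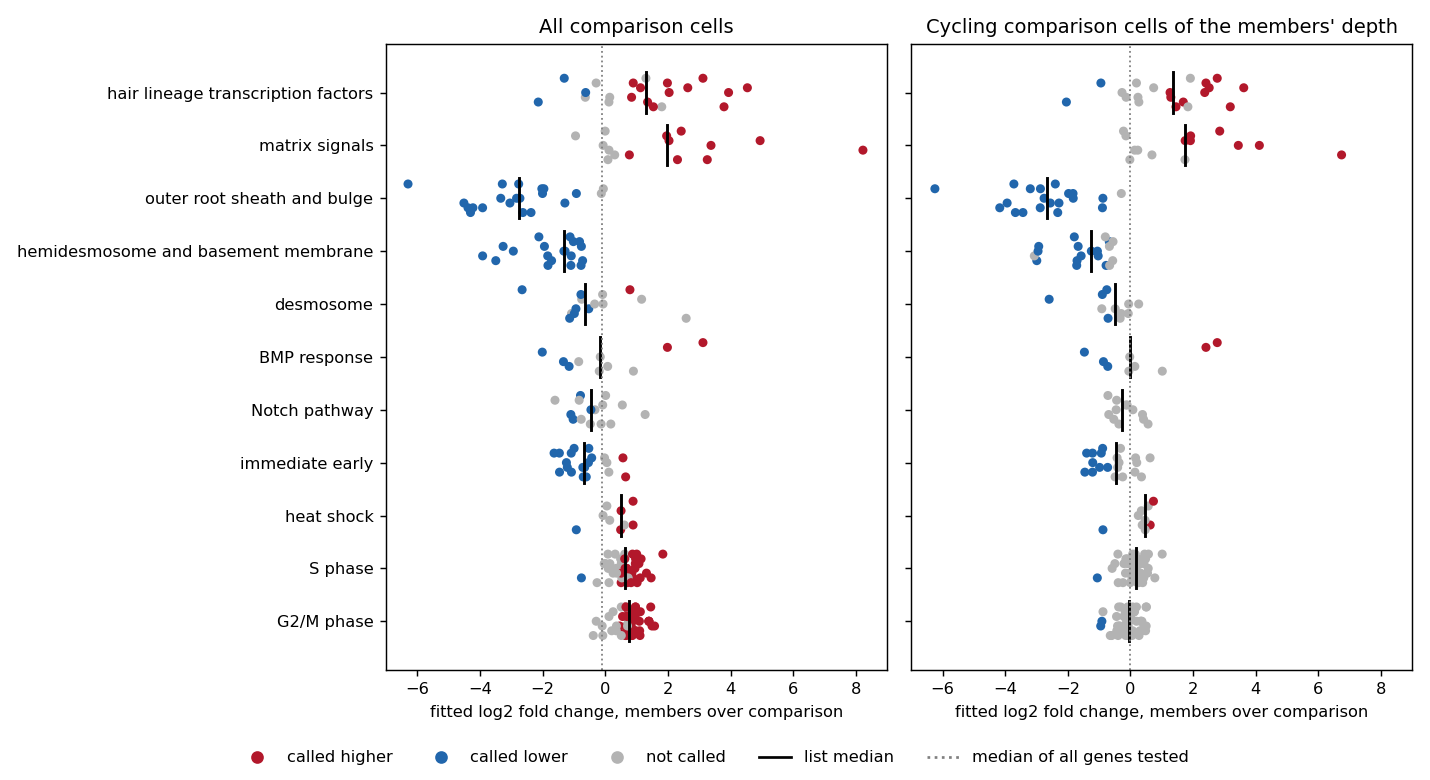
Fitted log2 fold changes of single genes (points) by gene list, against all comparison cells (left) and against cycling comparison cells of the chosen cells' depth (right), with list medians (bars) and the median of all genes tested (dotted). Hair lineage factors and matrix signals lie right of that line in both panels and outer root sheath genes left. The S phase and G2/M lists are shifted in the left panel only. Cycling markers helped to choose the comparison cells of the right panel.

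BMP response genes did not share a direction. Id1, Id2 and Id4, inhibitors of differentiation factors that BMP signals induce, were lower, at 366 and 324 CPM against 953 and 670 for Id1 (log2 -1.16 ± 0.11, adjusted p = 4.91e-08), with Id2 at -1.34 and Id4 at -2.01. Id3 stood at 782 and 817 CPM against 961 and 907 and was not called (log2 -0.16 ± 0.09). Msx1 and Msx2, which stand in this list too, were the 2 higher genes of 10. Notch pathway genes were lower in 4 of 15 and higher in 0. At matched depth 0 of 13 were lower, and with no replicate block 0 of 15, against 10.8% and 6.09% of all genes. With thinned cells and with DESeq2 1 of 13 was lower, against 4.02% and 6.94%. The target Hes1 stood at 66.0 and 49.3 CPM against 163 and 86.1 (log2 -1.03 ± 0.18, adjusted p = 0.000124), the ligand Jag1 changed by -0.79, and Notch1 and the coactivator Maml2 by -0.46 and -1.10.

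Immediate early genes, the quick responders to stimuli and to tissue handling, were lower in 15 of 20 and higher in 2 (median -0.68). Fos stood at 1366 and 934 CPM against 3707 and 3640 (log2 -1.64 ± 0.09), and Jun and Egr1 changed by -1.47 and -1.21, whereas Fosl1 and Egr3 rose by 0.65 and 0.56. Against the cycling cells 9 of 20 were lower and 0 higher. Of 9 heat shock genes, Hsp90aa1, Hspd1, Hspa8 and Hspe1 were higher (0.88, 0.88, 0.50 and 0.49) and Dnajb1 lower (-0.93). With thinned cells 0 of 9 were higher and 1 lower (1.11% and 4.02% of all genes). Against the cycling cells 2 of 9 were higher and 1 lower (4.43% and 7.62%). Cytosolic ribosomal protein genes were higher in 64 of 78 and lower in 0, with a median of 0.37, in 3 of 77 with thinned cells, and in 6 of 77 against the cycling cells (median 0.46). Many of these have pseudogenes, and the handling of reads that match more than 1 gene was not checked, here or for closely related keratins.

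The genes with the largest increases at 50 CPM or more included several that were spread over nearly all chosen cells. Fabp5, a carrier of fatty acids, was found in all 92 cells, at 7168 and 8175 CPM against 1044 and 746 (log2 3.18 ± 0.11, adjusted p = 1.19e-15). The metallothioneins Mt1 and Mt2, small proteins that bind zinc and copper, stood at 4632 and 8306 CPM against 218 and 955 (log2 3.83 ± 0.17) and at 2425 and 3148 against 110 and 261 (log2 4.09 ± 0.13). Mycl, a relative of the growth regulator Myc, was found in 30 and 24 cells, at 83.4 and 75.6 CPM against 2.21 and 5.77 (log2 4.52 ± 0.29, adjusted p = 5.88e-11). Both groups were apart in both libraries for each of these genes.

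Further genes named by the same rule were the EGF receptor ligand Areg (log2 3.73), the arginase gene Arg2 (3.69), the transcription factor Sox5 (3.39), the receptor Nrp2 (3.39), the protease inhibitor Slpi (2.77), the fatty acid desaturase Scd1 (2.53) and Wnt4. Areg was found in 17 and 9 cells and Slpi in 15 and 12, so these were not general. Against the cycling cells the genes named by the rule also included Metrnl (2.29). Among the 15 largest decreases, Sostdc1, which binds BMP and WNT ligands, stood at 5.78 and 3.44 CPM against 119 and 347 (log2 -5.37 ± 0.29, adjusted p = 6.56e-12). Sfrp1, a secreted WNT antagonist, stood at 16.5 and 20.6 CPM against 353 and 492 (log2 -4.43 ± 0.17). Cmah, Pi15, Mfge8, Selenop and Sult5a1 changed by log2 -4.58, -4.53, -4.42, -4.30 and -4.11.

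Dcn, which encodes the matrix proteoglycan decorin and is best known from fibroblasts, was among the increases. It was found in 35 of 52 and 32 of 40 chosen cells but in 2.48% and 3.51% of comparison cells, at 543 and 615 CPM against 72.9 and 63.5 (log2 3.15 ± 0.13, adjusted p = 9.51e-14). The other fibroblast markers were near 0. Over both libraries Col3a1 had 1 UMI, 353-fold lower (counting error allows 63.4 to 13960), Col1a1 5, Col1a2 4 and Lum 2, and Pdgfra had 0. Vim, a filament protein of mesenchymal cells, had 2 UMIs and stood 111-fold lower (30.7 to 916). Of the 6 fibroblast markers, 4 and 5 were detected, and their summed level was 547 and 623 CPM, against 557 and 458 in comparison cells. By marker content 1 chosen cell of replicate 1 and 0 of replicate 2 counted as fibroblasts, and 34 and 20 of the comparison cells did. Without doublet-ranked cells and cells of other types, Dcn was higher at log2 6.09, and Col3a1, Col1a1, Col1a2 and Lum were no longer called (edgeR adjusted p = 0.194, 0.392, 0.891 and 0.481). Fibroblasts were themselves picked by the 6 markers, Dcn among them, so leaving them out changes these values by design and is no separate check. The folds of Col3a1, Col1a1, Col1a2 and Lum are given against comparison cells that include fibroblasts. Vim was still called lower (adjusted p = 9.28e-05).

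Other cell types left few transcripts. Of 8 immune markers, 2 were detected in the chosen cells of each library, at a summed 6.60 and 5.73 CPM against 92.9 and 66.9, with Ptprc at 0. The comparison cells held 5 immune cells in each library by marker content. Of the immune markers tested 6 of 7 were lower, or 1 of 2 without doublet-ranked cells and cells of other types. Immune cells were picked by these same markers, so the last count is a description. Of 5 endothelial markers 2 and 1 were detected (15.7 and 3.44 CPM against 20.5 and 6.64), with Cdh5 at 0. Of 7 melanocyte markers 1 and 3 were detected (4.95 and 18.3 CPM against 21.9 and 17.6), with Pmel at 0. Of 6 dermal papilla markers 2 were detected in each library (35.5 and 4.58 CPM against 12.2 and 15.7), with Corin and Rspo3 at 0. In that list Wif1, a WNT antagonist, was called higher (log2 1.49 ± 0.43, adjusted p = 0.0139) on 42 UMIs of replicate 1, of which 90.5% lay in 1 cell; in replicate 2 it had 3 UMIs and stood at 3.44 CPM, below the 6.52 of comparison cells. Without doublet-ranked cells and cells of other types Wif1 was not called (adjusted p = 0.435). Of 7 sebaceous markers 3 and 6 were detected, with Pparg at 0 and Scd1 the only one called.

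The chosen cells differed among themselves in Krt71. The ranges used here were drawn after the values were seen and carry no test. Krt71 was at 0 UMIs in 31 and 23 cells, at 1 to 9 in 11 and 14, and at 10 or more in 10 and 3. In the last range the median cell held 4 UMIs of Krt5 in both libraries, against 14 and 20 where Krt71 was at 0. Krt15 had medians of 1 and 1 UMIs there, against 35 and 28, at like depths (median 20855 and 17291 UMIs per cell, against 24448 and 19552). Single cells in that range had up to 61 and 81 UMIs of Krt15. In summed counts the order was less regular: over the ranges of 0, 1 to 9 and 10 or more, Krt5 stood at 679, 979 and 304 CPM in replicate 1 and at 997, 1323 and 671 in replicate 2. Krt15 stood at 1712, 1885 and 487 CPM, and at 1477, 2778 and 1486. The middle range was thus the highest for both genes in both libraries, and in replicate 2 the last range, of 3 cells, was level with the first for Krt15. At least 3 cycling markers were found in 9 of 10 and 3 of 3 cells of the last range. The middle range had 7 of 11 and 12 of 14, and the first range 28 of 31 and 22 of 23.

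**Figure D4:**
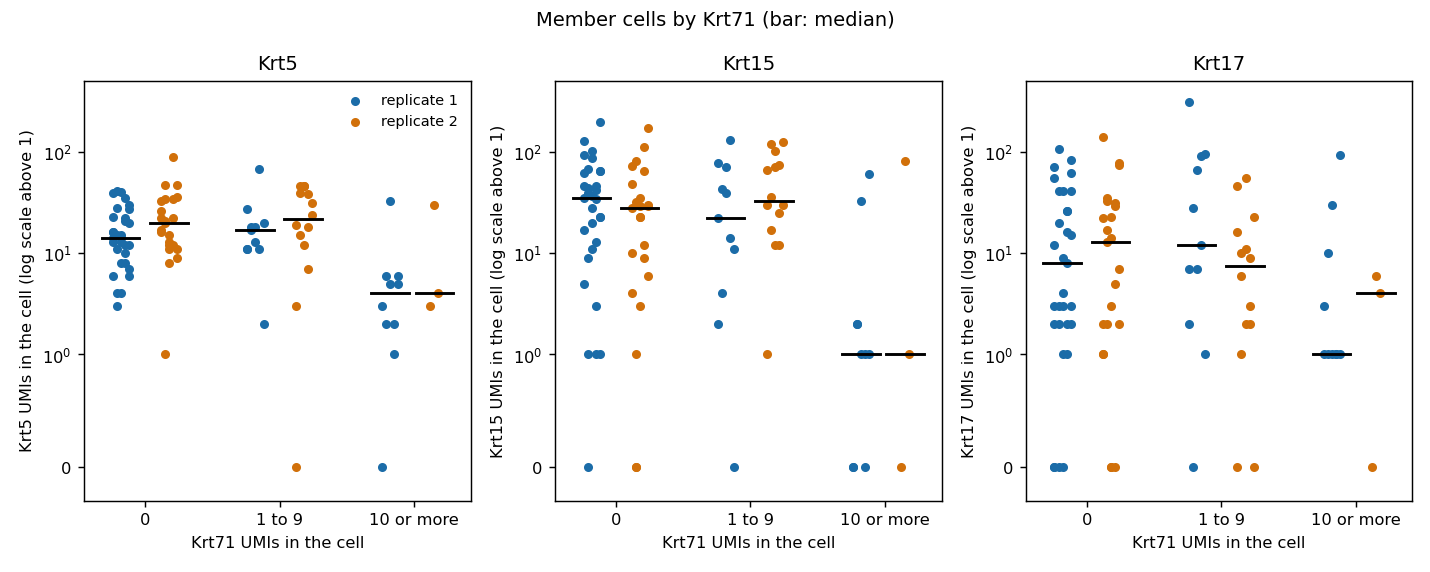
UMIs of Krt5, Krt15 and Krt17 in single chosen cells of both libraries (log axis above 1), by the cell's Krt71 UMIs, with medians as bars. Krt5 and Krt15 are low in most of the 13 cells with 10 Krt71 UMIs or more, whose Krt5 median is 4 in each library.

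The cells were also divided by the UMI sum of the 4 genes, again with no test. In replicate 1 the 9 cells with sums of 5 to 9 held 951 CPM of Krt5 and 4858 of Krt17, the 29 cells with sums of 10 to 49 held 692 and 862, and the 13 cells with sums of 50 or more, without the highest cell, held 574 and 599. In replicate 2 the 15, 20 and 5 cells of these ranges held 1554, 856 and 783 CPM of Krt5 and 780, 998 and 193 of Krt17. The highest cell of replicate 2 held 0 UMIs of Krt5, and without it the last range stood at 856 CPM of Krt5, the same as the middle range, and at 211 of Krt17. Both genes went down over the 3 ranges in replicate 1. Of the 608 Krt17 UMIs of its 9 cells with the lowest sums, 314 and 96 lay in 2 cells. At least 3 cycling markers were found in 4 of 9, 27 of 29 and 13 of 13 cells of replicate 1, and in 15 of 15, 18 of 20 and 4 of 5 of replicate 2, unthinned.

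Several cells stood out by 10 UMIs or more of Shh, Krt73, Krt35 or Krt75, again a choice made after the values were seen. In replicate 1, 1 cell with 12 of 12 cycling markers and a top doublet score held 40 UMIs of Shh, 16 of Wnt10b, 38 of Wif1 and 7 of Sp6, with a keratin sum of 15 and 107 UMIs of Krt17. Another cell with 12 of 12 markers held 14 UMIs of Shh, 26 of Krt73, 74 of Krt28 and 154 of Dcn. The cell of replicate 2 with the most keratin UMIs held 30 of Krt73, 49 of Tchh and 93 of Krt25, with 1 cycling marker and 0 UMIs of Krt5. Like the highest cell of replicate 1, it joined Krt73 and Tchh with low cycling markers.

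A different pattern was seen in 2 cells of replicate 1 with sums of 5 and 8, which held 82 and 27 UMIs of Krt75 and 314 and 96 of Krt17, with 1 and 0 cycling markers. In replicate 2, 1 cell held 16 UMIs of Krt75 with 32 of Krt71, and another 13 of the shaft keratin Krt35 with 28 of Krt28 and 9 cycling markers. The rule thus took in some cells that held many UMIs of a companion layer or hair shaft keratin. Detection of the companion layer keratins was not limited to these cells. Krt75 was found in 26 of 52 chosen cells of replicate 1 and 26 of 40 of replicate 2, and Krt17 in 47 and 34.

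Between the libraries, the chosen cells differed in some genes whose levels in comparison cells were within 1.5 times of each other. With 1 value per library there is no test, and intervals are exact Poisson for counting error. Higher in replicate 2 were Hist1h1d, a linker histone gene (57.3 CPM, 42.5 to 75.5, against 8.25, 3.96 to 15.2), and Cdo1, of cysteine breakdown (82.5, 64.5 to 104, against 17.3, 10.7 to 26.5), with Sema3e, Fstl1, Odc1, Egr4, Klf9, Fjx1, Mcm6 and Fam110a at ratios of 3.80 down to 2.41. Higher in replicate 1 were Hopx, a homeobox gene (480 CPM, 442 to 521, against 149, 124 to 177), and Plau, the urokinase gene (61.9, 48.7 to 77.6, against 22.9, 14.0 to 35.4), with Gltp, Fgf5, Slc44a2, Rbms1, Hspa1a and Acta2. Acta2 was found in 14 of 52 and 12 of 40 cells, with 42.9% and 36.7% of its UMIs in 1 cell each. Tchh and Sbsn also met the rule, but went from 348 to 4.23 CPM and from 89.1 to 22.0 CPM without the highest cell, against 61.9 and 20.6 in replicate 2, so that cell set both differences.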

How the data were processed

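The deposited files hold UMI counts per gene and cell, which the authors made with Cell Ranger 3.1.0 against mm10, per the submitters' processing notes, which also name Seurat 3.1; the gene models are not given in these sources. Libraries were prepared with the 10x Chromium 3′ kit and total 52344178 and 38678103 UMIs over 6592 and 5080 barcodes. Cells were kept with 1000 or more genes and at most 10% mitochondrial UMIs; doublets were scored (Scrublet, scanpy 1.11.5: the top 0.8% per 1000 barcodes) but not removed from the main comparison, and free RNA was not removed. UMIs were summed per library for chosen and comparison cells (4 sums) and fitted with edgeR 4.0.16 (R 4.3.3; TMM, expression filter, quasi-likelihood test, library term, 1 residual degree of freedom), with Benjamini-Hochberg adjustment over all genes tested; a gene is called at an adjusted p under 0.05. The test was tried on simulated counts. Krt25, Krt27, Krt28, Krt71, Krt5 and Krt14 were left out of it. CPM are UMIs scaled to the total of a sum, on the usual CPM scale. GENCODE M21 identifiers matched 31011 of the 31053 features. The cells and gene lists were chosen with earlier results of these data known. Named genes are members of those lists, and the 15 largest called changes each way at 50 CPM or more, in the same direction in both libraries. Alternatives covered normalization, tool, filter, comparison cells, thresholds, doublets, mitochondrial limit and thinning. 1 gene that the naming rule picked is not reported here.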

Additional observations from a re-analysis of the deposited data

How the results depend on the processing

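The counts of 1430 higher and 1850 lower genes became 786 and 1216 against comparison cells of the chosen cells' depth, 289 and 810 at 5% mitochondrial UMIs, 126 and 457 with cells thinned to 5000 UMIs, 758 and 766 with DESeq2, and 517 and 801 with no replicate block. Against cycling comparison cells they were 466 and 801, or 475 and 802 without the highest cell and 352 and 741 in the middle depth range. The share of chosen cells became 0.856% in replicate 1 at 5% mitochondrial UMIs, 0.672% and 0.526% with thinned cells, and in replicate 2 0.822% at a sum of 10 and 0.789% with 3 genes required. Cycling shares were 84.6% and 92.5% unthinned, and 60.0% in replicate 2 with 5 markers required.

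Signs changed both for genes that were not called and for genes that were. Gata3 was -0.053 without doublets, -0.066 at a sum of 10 and -0.048 to 0.17 when either library was left out. Ptch1 was -0.17 at matched depth, -0.079 without doublets, -0.46 at 5% mitochondrial UMIs, -0.27 thinned, -0.22, -0.21 and -0.20 in the cycling comparisons, -0.079 with no replicate block and -0.92 to 0.84 when either library was left out. Gli1 was 0.020 with Krt5 and Krt14 at 20 UMIs, 0.15 without doublets, 0.23 at 5% mitochondrial UMIs, 0.0085 without the highest cell, 0.32 in the middle depth range, 0.029 with RLE, 0.020 with DESeq2 and -0.36 to 0.20 when either library was left out. Lhx2 was 0.087 with Krt5 and Krt14 at 20 UMIs, and Id3 0.0021 at matched depth and 0.023 in the middle depth range. Of called genes, to which those of the next paragraph also belong, Bambi was -0.18 to 1.56 when either library was left out, Lum 2.48 without doublets, and Pkp4 -0.059 and -0.17 in the cycling comparison with and without the highest cell. Wif1 was -1.25 with 3 genes required, -2.08 at 5% mitochondrial UMIs, -0.30 thinned, -0.67 in the middle depth range and -0.92 to 2.23 when either library was left out.

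In the cycling comparison, the same without the highest cell, and in the middle depth range, Mki67 was -0.12, -0.11 and -0.068, Cenpf -0.41, -0.40 and -0.52, Birc5 -0.14, -0.13 and -0.0073 and Nusap1 -0.38, -0.36 and -0.37. Tpx2 was -0.089 and -0.073 in the first of these and the next, and Cenpf -0.0042 at matched depth. These comparison cells were chosen by the markers; otherwise the cause was not tested. The fit has 1 residual degree of freedom, so leaving out a library gave ratios and no test.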
